A study of Mus musculus with 6 samples.

Results

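The genes described here encode the proteasome, and they were taken as every feature of the expression table whose symbol is Psma, Psmb, Psmc, Psmd, Psme, Psmf or Psmg followed by a number. That rule gave 48 genes of 18158 listed features, and 47 of them reached 1 TPM (a level scaled for transcript length and library size) in at least 3 of 6 libraries and were tested. The proteasome is the protease that degrades ubiquitin-tagged proteins in the cytosol and nucleus. Its barrel-shaped core has outer rings of alpha subunits and inner rings of beta subunits, and it is opened by a regulatory particle or by other activators. Interferon induces the beta subunits Psmb8, Psmb9 and Psmb10, which replace the constitutive catalytic subunits Psmb5, Psmb6 and Psmb7 in newly made cores, and it induces the PA28 activator of Psme1 and Psme2. The resulting immunoproteasome is known for supplying peptides to MHC class I molecules and is abundant in leukocytes, while cardiomyocytes carry mainly the constitutive form.

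The study gave 3-month-old CD1 mice, an outbred stock, either Paro/Neo or PBS as the vehicle for 14 days. Paro/Neo is paromomycin combined with neomycin, a pair of aminoglycoside antibiotics, injected intraperitoneally at 150 mg/kg 2 times a day, whereas the labels call the PBS injections daily. Ventricles of 3 mice per group were sequenced, and each library is 1 mouse. The design text asks how gene expression differs where the treatment is meant to suppress Meis1 and Hoxb13.

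The libraries held an estimated 9556387 to 15969980 assigned reads, read back from the steps of the low TPM values. All 8 cardiomyocyte markers were present in every heart, and their summed level was 112380 to 143080 TPM in Paro/Neo and 121820 to 131110 TPM in vehicle hearts. Paro/Neo replicate 1 stood apart from the rest, with a mean correlation of 0.9755 with the other libraries, against 0.9814 to 0.9853 for the other libraries. Among the 47 tested proteasome genes it held the highest value of all 6 hearts for 22 and the lowest for 11. Those 22 genes had a median transcript GC content of 47.7% and those 11 one of 52.6%. Such gaps were not particular to that library. In Paro/Neo replicate 3 the medians were 52.87% for its highest genes and 44.75% for its lowest. They were 51.25% and 48.32% in Paro/Neo replicate 2, 51.96% and 46.95% in vehicle replicate 1, and 45.94% and 51.19% in vehicle replicate 3. The part of Paro/Neo replicate 1 in the results was not tested. Values without it are given for some of the genes and medians it moves, not for all.

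Of the 47 tested proteasome genes, 0 passed the threshold of an adjusted p of 0.05 (limma on log2(TPM + 1), Benjamini-Hochberg over all 12409 tested genes), where 0.137% of all tested genes passed it in either direction, 0.121% higher and 0.0161% lower. Voom, run on the estimated reads, also called 0. The lowest p values belonged to the interferon-inducible subunits Psmb8 and Psmb9, whose mean levels were 2.15 and 2.03 times those of vehicle hearts. In whole ventricles, a difference in the number of cells of a type and a difference in RNA per cell cannot be told apart. At an unadjusted p under 0.05, 6 of the 47 genes were higher in Paro/Neo hearts (12.8%, against 3.24% of all tested genes) and 0 were lower (against 4.37%). These 6 were Psmb8, Psmb9, Psme2, Psmg3, Psma8 and Psmd1, and the count was 3 (6.38%) without any one of Paro/Neo replicate 1, vehicle replicate 1 or vehicle replicate 3, where 2.40% to 3.33% of all tested genes were higher at that p. Without Paro/Neo replicate 1, 1 gene, Psmd5, was lower at that p, against 3.96% of all tested genes. Every Paro/Neo heart lay above every vehicle heart for 9 of the 47 genes (19.1%, against 6.04% of all tested genes), and below for 2 (4.26%, against 8.22%). Leaving out a library cannot make groups that are apart overlap, so these counts could only stay or grow. Without Paro/Neo replicate 1 the counts were 9 above, against 10.7% of all tested genes, and 6 below, against 12.8%. Without Paro/Neo replicate 2 the counts were 16 above and 4 below, against 12.6% and 13.2% of all tested genes. Without vehicle replicate 2 there were 14 above, against 10.7%, and without vehicle replicate 1 there were 4 below, against 13.1%. The log2 change was above 0 for 30 of the 47 genes (63.8%, against 46.3% of all tested genes), and its median was 0.07 over these genes and -0.02 over all tested genes. With Paro/Neo replicate 1 left out the median over these genes was 0.04, and with Paro/Neo replicate 3 left out it was 0.11.

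**Figure D1:**
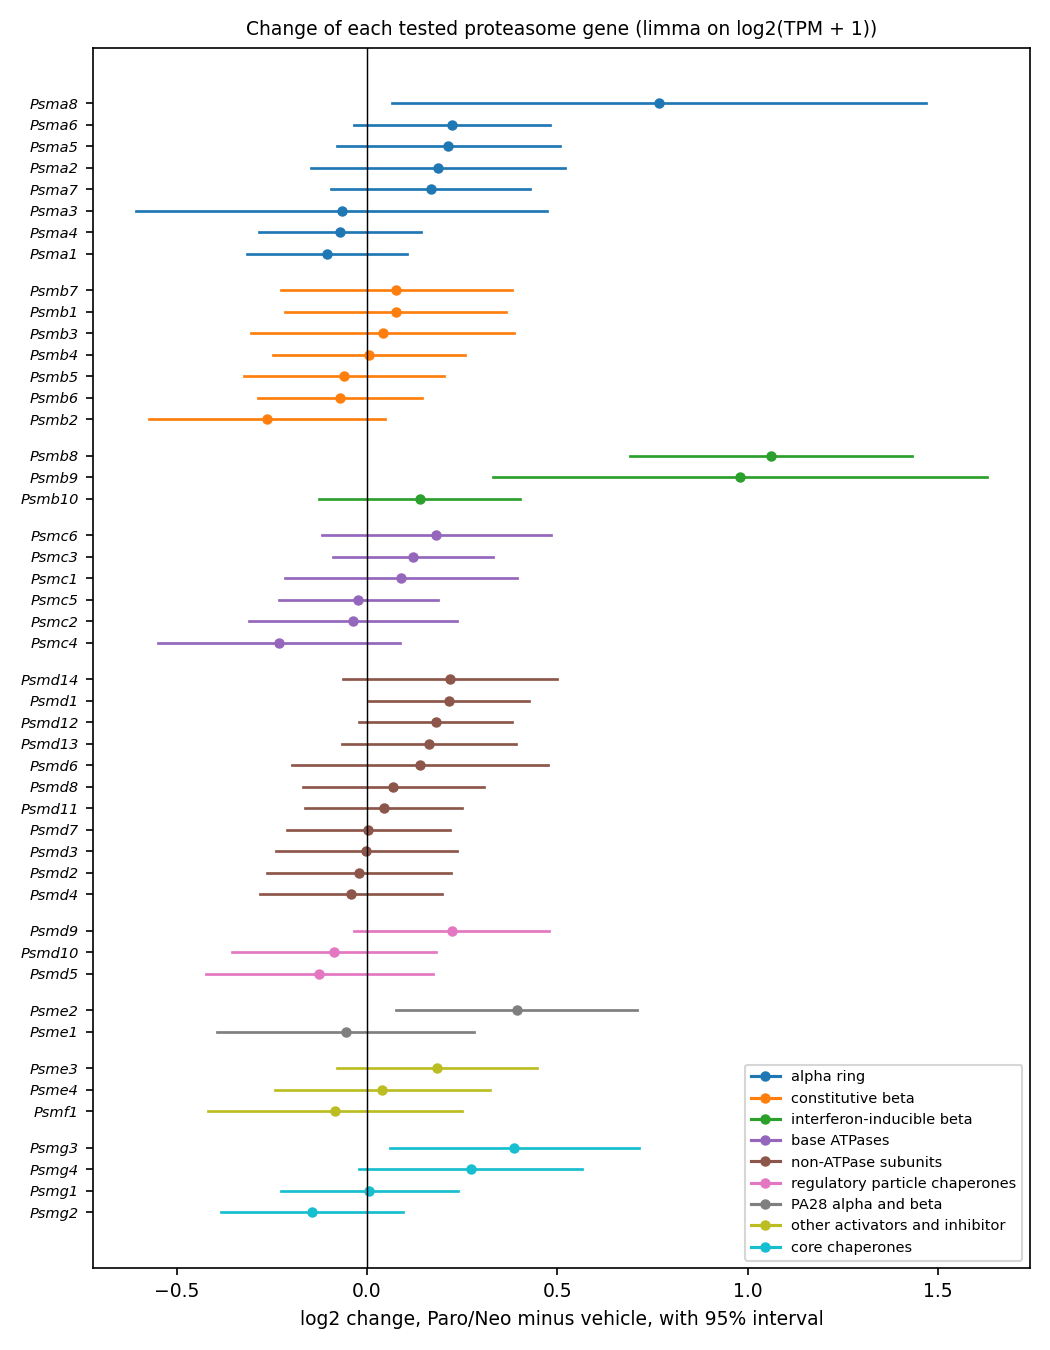
Log2 change of the 47 tested proteasome genes, Paro/Neo minus vehicle (x axis, log2(TPM + 1) scale), by subunit class, with points for the estimates and lines for 95% intervals from the limma fit. Psmb8 and Psmb9 lie near 1, at 1.06 and 0.98, and most other genes have intervals that span 0.

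Psmb8 encodes the immunoproteasome subunit that takes the place of Psmb5. It was at 65.3, 44.96 and 62.2 TPM in Paro/Neo hearts, from 368 to 646 estimated reads, against 26.4, 23.9 and 30.1 TPM in vehicle hearts, from 181 to 264 reads. The groups did not overlap, and the lowest Paro/Neo heart, replicate 2, was still above the highest vehicle heart. The log2 change was 1.06 ± 0.16 (SE), with a 95% interval of 0.69 to 1.43, an unadjusted p of 0.000164 and an adjusted p of 0.0777 by limma. It thus missed the threshold. Left out one at a time, the libraries gave changes of 0.96 to 1.23, and without Paro/Neo replicate 2 the limma adjusted p was 0.027, the lowest of a range of 0.027 to 0.283 over all alternative settings. Psmb8 is located in the MHC, on chromosome 17 from 34197721 to 34201454 in GENCODE M21 (GRCm38), and its exons overlap those of the antisense gene Gm20496 on the other strand. The strand setting of the authors' counting is not given in the sources used here, so reads of such overlapping pairs cannot be told apart.

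Psmb9, the counterpart of Psmb6, was at 29.8, 19.3 and 36.0 TPM in Paro/Neo hearts and at 8.94, 17.7 and 15.1 TPM in vehicle hearts. The groups did not overlap, but Paro/Neo replicate 2, with 104 estimated reads, was close to vehicle replicate 2, with 98. The log2 change was 0.98 ± 0.28 (SE), with a 95% interval of 0.33 to 1.63 and an adjusted p of 0.443 by limma. Psmb9 lies on chromosome 17 at 34181987 to 34187764, on the minus strand, and its 5′ end overlaps exons of Tap1, a peptide transporter gene that runs the other way. Tap1 was at 5.32, 4.66 and 12.6 TPM in Paro/Neo hearts, against 3.10, 3.16 and 3.999 TPM in vehicle hearts. Its groups did not overlap either, and its highest heart was Paro/Neo replicate 3, as for Psmb9.

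Psmb10, the counterpart of Psmb7, was at 53.5, 49.8 and 63.3 TPM in Paro/Neo hearts and at 52.5, 49.7 and 48.2 TPM in vehicle hearts. The groups overlapped, with Paro/Neo replicate 3 above all other hearts. Its log2 change was 0.14, with a 95% interval of -0.13 to 0.40, or 0.917-fold to 1.32-fold on the TPM + 1 scale, with a change of 0.04 when Paro/Neo replicate 3 was left out and of 0.21 when Paro/Neo replicate 2 was left out. That interval lies below the 1.62-fold lower bound for Psmb8, but a difference between these changes was not tested. Psmb10 lies outside the MHC, on chromosome 8 at 105935735 to 105938444.

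**Figure D2:**
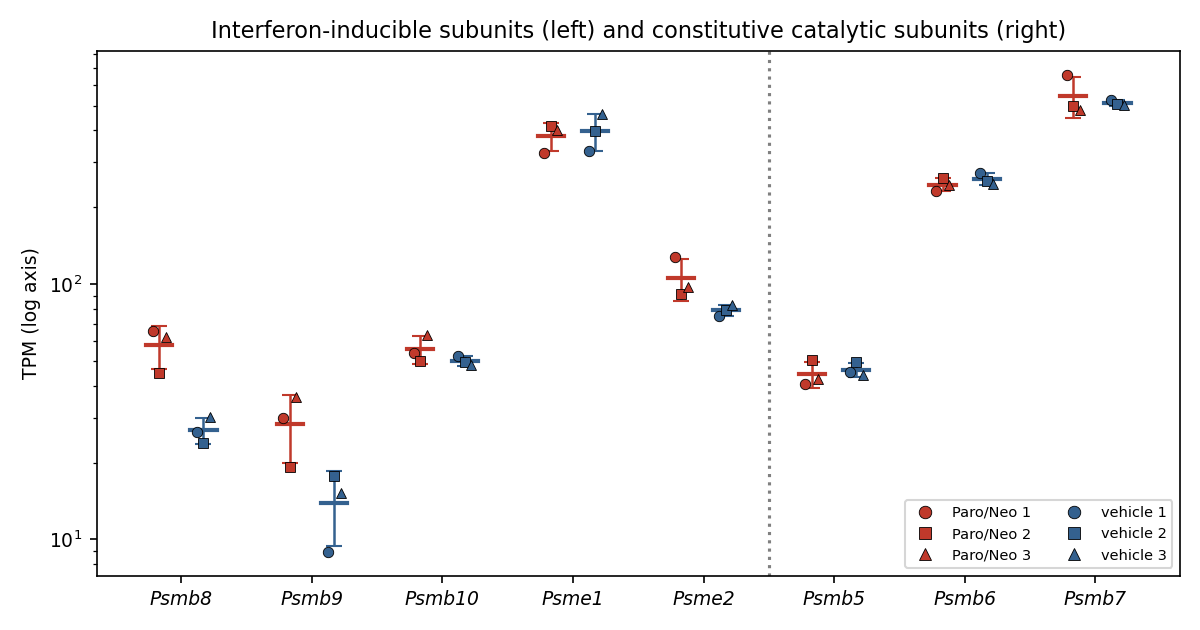
TPM on a log axis for the interferon-inducible genes and the constitutive catalytic subunits in each heart, Paro/Neo in red and vehicle in blue, with the mean and SD (n = 3 each). The Psmb8, Psmb9 and Psme2 groups are apart, and those of Psmb10, Psme1, Psmb5, Psmb6 and Psmb7 overlap.

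Psme1 and Psme2 encode the alpha and beta subunits of PA28, a ring that caps the core and opens it without ATP. Psme2 was at 127.9, 91.1 and 97.0 TPM in Paro/Neo hearts, against 75.1, 79.4 and 82.9 TPM in vehicle hearts. The groups did not overlap, and Paro/Neo replicate 1 was the highest. The log2 change of 0.39 ± 0.14 (SE) had a limma adjusted p of 0.531, and it was 0.25 without Paro/Neo replicate 1. Psme1 was at 326.9, 416.4 and 400.5 TPM in Paro/Neo hearts, against 333.6, 397.3 and 462.2 TPM in vehicle hearts. Its groups overlapped, and its log2 change of -0.06 had a 95% interval of -0.39 to 0.28, and it was 0.05 without Paro/Neo replicate 1 and 0.06 without vehicle replicate 3. The level of Psme2 was 39.1%, 21.9% and 24.2% of that of Psme1 in Paro/Neo hearts and 22.5%, 20.0% and 17.9% in vehicle hearts, so Paro/Neo replicate 2 lay within the range of vehicle hearts. Both genes lie on chromosome 14, with Emc9 between them and overlapping the 3′ end of Psme1 on the other strand. Psme1 is at 55578123 to 55581529 and Psme2 is at 55587441 to 55591113. Of the 76-base stretches in the annotated Psme2 transcripts, 22.7% also occur in Psme2b, a similar gene on chromosome 11, so the authors' counting could have divided reads between them. Psme2b was at 4.80% to 7.21% of the Psme2 level in Paro/Neo hearts and 5.07% to 6.94% in vehicle hearts.

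The promoter sequences of these 5 interferon-inducible genes are shown because 3 of them had groups apart and 2 did not. Each line gives the 250 bases before the RefSeq start (GRCm38.p6), 5′ to 3′. For Psmb8, Psmb9, Psmb10, Psme1 and Psme2 that start lies within the GENCODE gene, so part of a window can be annotated as transcribed. The regions are chr17:34197945-34198194 on the plus strand, chr17:34187331-34187580 on the minus strand, chr8:105938393-105938642 on the minus strand, chr14:55578244-55578493 on the plus strand and chr14:55591102-55591351 on the minus strand. Capitals mark matches to TTCNNNGAA (the GAS, an interferon-response element) or to GAAA, any 2 bases and GAAA again (the core of the ISRE, bound by IRF proteins), searched on both strands.
Psmb8: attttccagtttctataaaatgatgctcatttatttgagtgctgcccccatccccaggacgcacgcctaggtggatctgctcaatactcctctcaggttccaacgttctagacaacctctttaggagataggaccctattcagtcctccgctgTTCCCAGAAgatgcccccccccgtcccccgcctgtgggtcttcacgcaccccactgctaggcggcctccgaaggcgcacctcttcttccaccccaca
Psmb9: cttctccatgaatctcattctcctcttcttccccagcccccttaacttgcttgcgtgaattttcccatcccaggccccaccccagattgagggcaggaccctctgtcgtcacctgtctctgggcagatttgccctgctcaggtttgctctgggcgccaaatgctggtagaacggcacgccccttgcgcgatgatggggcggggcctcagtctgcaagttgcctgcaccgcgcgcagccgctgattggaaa
Psmb10: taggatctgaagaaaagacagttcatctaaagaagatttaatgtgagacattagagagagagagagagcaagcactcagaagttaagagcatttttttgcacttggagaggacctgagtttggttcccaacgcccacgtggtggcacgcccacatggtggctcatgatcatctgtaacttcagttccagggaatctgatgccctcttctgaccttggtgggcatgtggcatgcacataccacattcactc
Psme1: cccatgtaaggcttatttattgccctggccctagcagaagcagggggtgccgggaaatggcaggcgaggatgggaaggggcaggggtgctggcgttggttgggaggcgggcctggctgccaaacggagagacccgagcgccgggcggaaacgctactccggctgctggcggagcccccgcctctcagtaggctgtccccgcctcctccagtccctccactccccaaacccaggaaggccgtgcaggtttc
Psme2: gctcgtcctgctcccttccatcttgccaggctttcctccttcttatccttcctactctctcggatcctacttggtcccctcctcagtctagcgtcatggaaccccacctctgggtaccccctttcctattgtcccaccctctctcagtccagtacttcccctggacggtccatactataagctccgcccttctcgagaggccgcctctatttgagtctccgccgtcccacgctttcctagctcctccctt
Within the 300-base windows, which add 50 bases after the start, Psmb8 held a GAS match that begins 97 bases before the start. Psme1 held an ISRE core match that begins 10 bases into the transcript, shown here in its 30-base surroundings, chr14:55578493-55578522 on the plus strand.
Psme1 site: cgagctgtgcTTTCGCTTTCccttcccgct
Psmb9, Psmb10 and Psme2 had no match to either motif in these windows. The GAS letters occur in 8.30% of all 32851 promoter windows and in those of 3 of the 40 proteasome genes with a window, Psmb8, Psmd2 and Psmg1. The ISRE core letters occur in 3.44% of all windows and in those of 5 of the 40 genes, Psmb3, Psmd4, Psmd9, Psme1 and Psmg4. The windows of Psmb5 and Psmb6 held TGACNNNGC, the letters of the antioxidant response element through which Nfe2l1 and Nfe2l2 act, as did those of 6 of the 40 genes in all and 12.39% of all windows. This motif was searched on both strands and had no match in the windows of the 5 genes shown above.

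The constitutive catalytic subunits gave overlapping groups. Psmb5, which carries the chymotrypsin-like site, was at 40.6, 50.3 and 42.4 TPM in Paro/Neo hearts and at 45.3, 49.4 and 43.9 TPM in vehicle hearts. Psmb6, which carries the caspase-like site, was at 232.2, 260.9 and 243.4 TPM in Paro/Neo hearts, against 272.9, 254.1 and 246.0 TPM in vehicle hearts. Psmb7, which carries the trypsin-like site, was at 661.6, 498.0 and 481.2 TPM in Paro/Neo hearts, against 528.3, 507.1 and 504.0 TPM in vehicle hearts. Paro/Neo replicate 1 was the highest heart for Psmb7 and the lowest for Psmb5 and Psmb6. The 95% intervals of the fold change on the TPM + 1 scale were 0.7995 to 1.15 for Psmb5, 0.820 to 1.11 for Psmb6 and 0.855 to 1.302 for Psmb7. The log2 change of Psmb7 was 0.08, and -0.07 without Paro/Neo replicate 1. Annotated transcripts of other genes, Gm3375 and Mir686, hold 36.1% of the 76-base stretches of Psmb5, so its level is uncertain.

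TPM is per length, so the levels of the members of each catalytic pair can be set side by side. Psmb8 made up 61.7%, 47.2% and 59.5% of the summed TPM of Psmb8 and Psmb5 in Paro/Neo hearts, against 36.8%, 32.6% and 40.7% in vehicle hearts. The groups did not overlap, but these shares carry the uncertainty in the level of Psmb5, so the order of the pair's levels within a heart is not read from them. Psmb9 made up 10.4% ± 3.12 of its pair with Psmb6 in Paro/Neo and 5.16% ± 1.76 in vehicle hearts (SD, n = 3 each). Psmb10 made up 9.40% ± 2.09 of its pair with Psmb7 in Paro/Neo and 8.90% ± 0.157 in vehicle hearts (SD, n = 3 each). The log2 ratio of Psmb8 to Psmb5 differed by 1.15 and that of Psmb9 to Psmb6 by 1.105 between groups that did not overlap, each with p = 0.1 in an exact two-sided permutation test over the 6 hearts. That is the smallest p which 3 against 3 allows, and it was 0.15 after Benjamini-Hochberg adjustment over the 3 pairs. The log2 ratio of Psmb10 to Psmb7 differed by 0.06, with overlapping groups and an exact permutation p of 0.7.

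**Figure D3:**
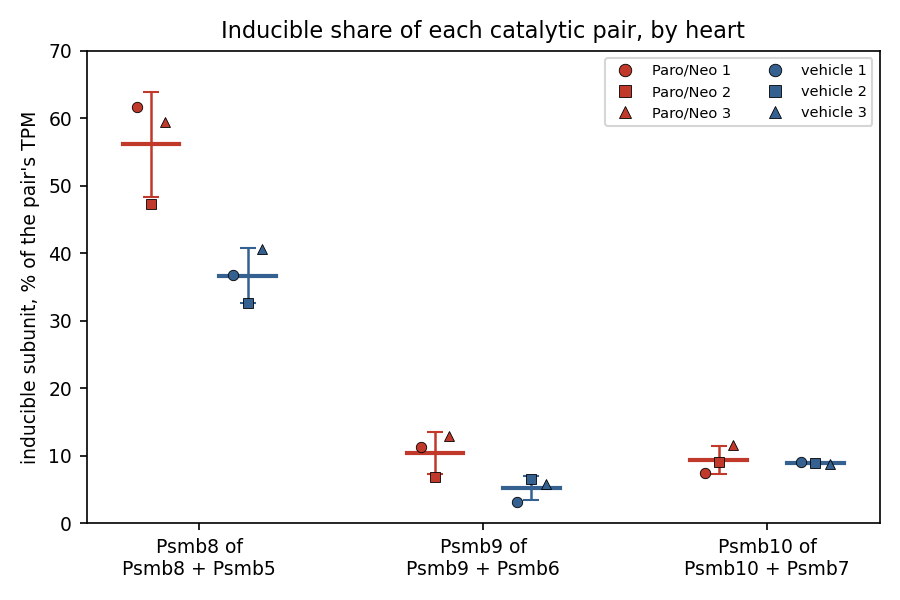
Share of the interferon-inducible subunit in the summed TPM of each catalytic pair (y axis, percent) in each heart, Paro/Neo in red and vehicle in blue, with the mean and SD (n = 3 each). For Psmb8 the lowest Paro/Neo heart is at 47.2% and the highest vehicle heart at 40.7%, while the Psmb10 groups overlap.

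The alpha ring forms the gate of the core. In this group of 8 genes 5 were higher, 3 lower and 0 past the threshold. The median log2 change was 0.18, and 0.06 without Paro/Neo replicate 1. Psma6 was at 573.8, 448.7 and 480.3 TPM in Paro/Neo hearts, against 421.1, 442.9 and 416.8 TPM in vehicle hearts. Its groups did not overlap, by a margin set by Paro/Neo replicate 2 and vehicle replicate 2, and its log2 change of 0.22 was 0.12 without Paro/Neo replicate 1. Psma8, an alpha subunit known from the testis that stands in for Psma7 in germ cells, was lowest of the ring, at 4.89, 3.18 and 5.20 TPM in Paro/Neo hearts and at 1.08, 3.88 and 2.04 TPM in vehicle hearts. These levels rest on 36 to 67 estimated reads in Paro/Neo and 15 to 45 in vehicle hearts, and the groups overlapped. Its log2 change was 0.77 ± 0.30 (SE), adjusted p 0.593 by limma, and it was 0.47 without vehicle replicate 1. Psma1, Psma2, Psma4 and Psma7 had means of 350.1, 329.6, 314.3 and 260.2 TPM in Paro/Neo hearts and of 376.4, 286.1, 330.1 and 231.4 TPM in vehicle hearts. Psma5 and Psma3 were lower than these, at 71.5 and 28.2 TPM in Paro/Neo hearts and at 61.0 and 28.5 TPM in vehicle hearts. The near-equal means of Psma3 hide a wide spread, with an SD of 9.70 TPM in Paro/Neo and 3.46 TPM in vehicle hearts. Paro/Neo replicate 1 was its highest heart and Paro/Neo replicate 3 its lowest. Other annotated genes share 34.7% of the 76-base stretches of Psma5 and 14.3% of those of Psma3.

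For the 7 constitutive beta genes, 4 higher and 3 lower, the median log2 change was 0.0052, and it was -0.07 without Paro/Neo replicate 1 and -0.01 with quantile normalization. Psmb2 stood out at the lower end, with 213.4, 289.5 and 288.4 TPM in Paro/Neo hearts and 333.5, 301.9 and 306.2 TPM in vehicle hearts. All Paro/Neo hearts lay below all vehicle hearts, replicate 1 by the widest margin. Its log2 change of -0.26 ± 0.13 (SE), limma adjusted p 0.699, was -0.12 without Paro/Neo replicate 1. The structural subunits Psmb1, Psmb3 and Psmb4 had means of 451.6, 184.5 and 296.8 TPM in Paro/Neo hearts and of 428.5, 177.8 and 294.5 TPM in vehicle hearts. Psmb11, the beta subunit of the thymus proteasome, was above 0 only in Paro/Neo replicate 2, where its estimate was 1 read. A gene above 0 in only 1 library is always estimated at 1 read, so the true number can be higher. A count of 0 allows up to 3 reads by counting error only. That is 0.0863 to 0.144 TPM in these hearts if the value above 0 stands for 1 read.

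The ATPase ring Psmc1 to Psmc6 unfolds substrates and threads them into the core. Equal numbers of these 6 genes were higher and lower, 3 each, and their median log2 change of 0.03 was -0.03 without either Paro/Neo replicate 2 or vehicle replicate 2. Psmc4 was at 85.1, 115.5 and 119.6 TPM in Paro/Neo hearts and at 128.8, 121.3 and 122.2 TPM in vehicle hearts, and Psmc6 was at 553.6, 405.0 and 415.4 TPM in Paro/Neo hearts, against 404.6, 402.6 and 390.9 TPM in vehicle hearts. The groups did not overlap for either gene, the first lower and the second higher in Paro/Neo hearts. Both differences narrowed without Paro/Neo replicate 1, with log2 changes of -0.08 for Psmc4 and 0.04 for Psmc6, against -0.23 and 0.18 with all hearts. The means of Psmc1, Psmc2, Psmc3 and Psmc5 were 290.3, 165.7, 422.9 and 184.4 TPM in Paro/Neo hearts and 273.3, 169.8, 389.5 and 187.2 TPM in vehicle hearts.

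Among the 11 other subunits of the regulatory particle, which recognise ubiquitin, remove it and form the lid, the log2 change was above 0 for 8, below for 3, and 0.07 at the median, and single libraries left out moved that median to 0.04 (Paro/Neo replicate 1), 0.11 (Paro/Neo replicate 3) or 0.12 (vehicle replicate 1). Psmd1, the largest scaffold of the base, was at 177.3, 163.7 and 158.2 TPM in Paro/Neo hearts and at 139.7, 140.8 and 148.9 TPM in vehicle hearts. The lid subunit Psmd12 was at 267.7, 258.6 and 253.8 TPM in Paro/Neo hearts and at 217.9, 234.3 and 236.2 TPM in vehicle hearts. For both genes the groups were apart by a small ratio, 1.16 for Psmd1 and 1.13 for Psmd12, and the adjusted p values by limma were 0.646 and 0.690. Psmd14, the deubiquitinase of the lid, averaged 139.1 ± 12.8 TPM in Paro/Neo hearts and 119.7 ± 14.4 TPM in vehicle hearts (SD, n = 3 each), with overlapping groups. The ubiquitin receptor Psmd4 and the base scaffold Psmd2 averaged 156.3 and 157.5 TPM in Paro/Neo hearts and 160.6 and 159.8 TPM in vehicle hearts. The lid genes Psmd3, Psmd6, Psmd7, Psmd8, Psmd11 and Psmd13 had log2 changes between -0.0014 for Psmd3 and 0.16 for Psmd13. Psmd6 was at 316.8, 221.3 and 223.4 TPM in Paro/Neo hearts, against 231.0, 219.5 and 230.7 TPM in vehicle hearts, so that replicate 1 alone lay above the vehicle range. Its log2 change was 0.14, and -0.03 without that library.

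Assembly chaperones help build the complex and are not part of it. Psmg3 and Psmg4, which pair in the assembly of the alpha ring, were at 14.3, 12.6 and 12.7 TPM and at 48.6, 43.2 and 52.4 TPM in Paro/Neo hearts, against 12.1, 9.04 and 8.73 TPM and 34.2, 43.4 and 41.5 TPM in vehicle hearts. The groups were apart for Psmg3, with vehicle replicate 1 just below the lowest Paro/Neo heart, and they overlapped for Psmg4. The log2 changes were 0.39 for Psmg3 and 0.27 for Psmg4, with adjusted p values of 0.565 and 0.672 by limma, and the change of Psmg4 was 0.17 without vehicle replicate 1. Psmg1 and Psmg2, the other pair, averaged 47.5 and 86.3 TPM in Paro/Neo hearts and 47.3 and 95.7 TPM in vehicle hearts. Of the chaperones of the regulatory particle, Psmd9 was at 10.6, 10.6 and 10.8 TPM in Paro/Neo hearts and at 8.77, 9.96 and 8.32 TPM in vehicle hearts. Its groups did not overlap, and its log2 change was 0.22, adjusted p 0.695 by limma. Psmd5 was at 37.8, 30.0 and 27.8 TPM in Paro/Neo hearts, against 36.2, 33.6 and 33.8 TPM in vehicle hearts, and Psmd10 averaged 28.4 TPM in Paro/Neo hearts and 30.2 TPM in vehicle hearts. Both had overlapping groups.

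The other regulators also overlapped between groups. Psme3, the nuclear PA28 subunit, was at 59.8, 47.0 and 53.4 TPM in Paro/Neo hearts and at 46.5, 49.0 and 44.6 TPM in vehicle hearts, with a log2 change of 0.18 that was 0.0998 without Paro/Neo replicate 1. Psme4, the activator PA200, averaged 212.0 ± 29.9 TPM in Paro/Neo hearts and 205.1 ± 15.2 TPM in vehicle hearts (SD, n = 3 each). Psmf1, the inhibitor PI31, was at 6.67, 8.39 and 9.55 TPM in Paro/Neo hearts, against 9.17, 8.90 and 7.98 TPM in vehicle hearts. Apart from the 5 interferon-inducible genes, 42 tested genes remained. For 39 of them the 95% interval of the fold change on the TPM + 1 scale lay within 1.5-fold in either direction. The exceptions were Psma3 (0.656 to 1.39), Psma8 (1.05 to 2.77) and Psmg3 (1.04 to 1.64). The summed level of these 42 genes was 8374, 7499 and 7469 TPM in Paro/Neo hearts, against 7507, 7458 and 7379 TPM in vehicle hearts. Paro/Neo replicate 1 was thus above the other 5 hearts, and Paro/Neo replicates 2 and 3 lay within the vehicle range.

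**Figure D4:**
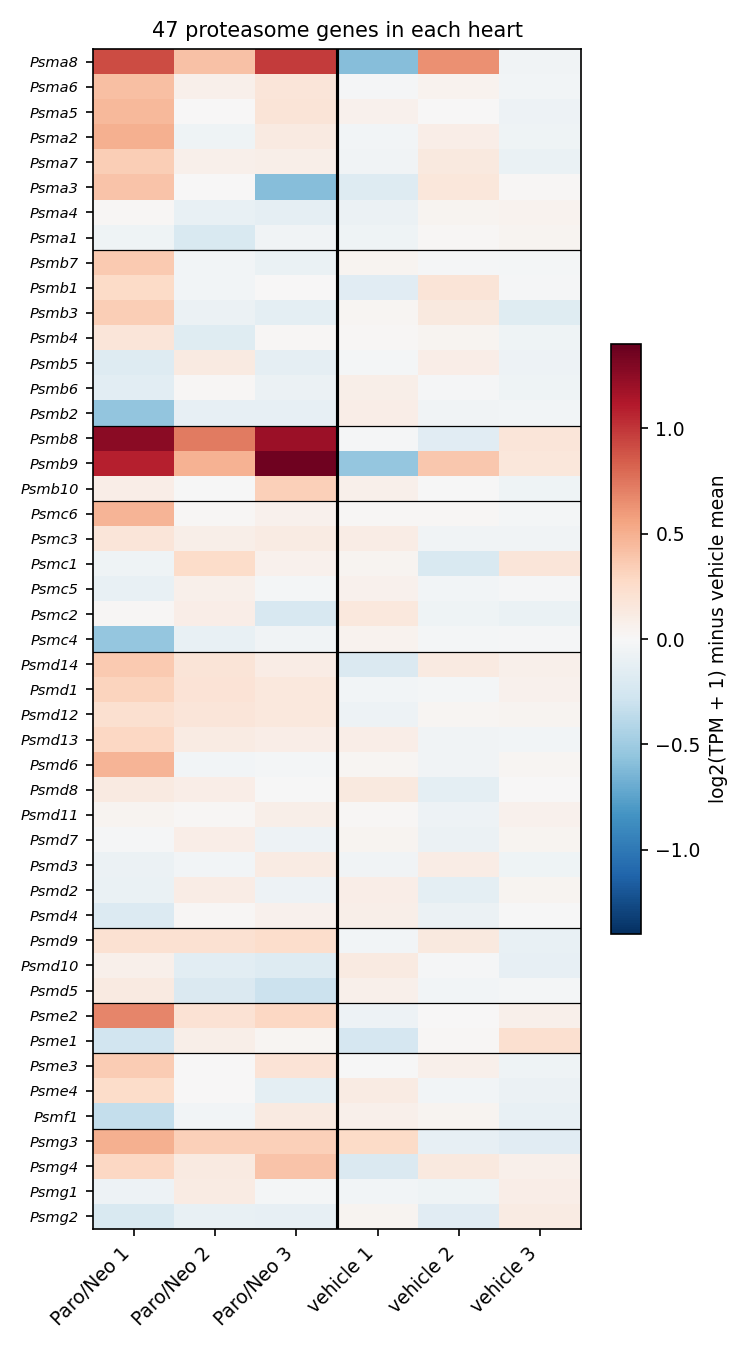
Log2(TPM + 1) of the 47 tested proteasome genes in each heart, minus the mean of the vehicle hearts (colour), with lines between subunit classes. Psmb8 and Psmb9 are above the vehicle mean in all 3 Paro/Neo hearts, and Paro/Neo replicate 1 deviates in both directions over many constitutive genes.

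Genes that work with the proteasome were listed outside the symbol rule. The counts in these lists stand beside 46.3% of all tested genes with a higher level in Paro/Neo hearts. Of 17 tested partners, 12 were higher, 5 were lower and 0 passed the threshold, and the median change was 0.03 on the log2 scale. Pomp, the chaperone that matures new cores, was at 615.7, 518.0 and 479.2 TPM in Paro/Neo hearts, against 421.4, 473.8 and 459.4 TPM in vehicle hearts. Its groups did not overlap, its adjusted p was 0.681 by limma, and its log2 change of 0.25 was 0.14 without Paro/Neo replicate 1. Txnl1, a thioredoxin-like protein bound to the regulatory particle, was at 123.3, 117.1 and 124.4 TPM in Paro/Neo hearts, against 102.5, 113.2 and 110.4 TPM in vehicle hearts, with groups apart and an adjusted p of 0.715. Nfe2l1, which raises constitutive subunit genes when the proteasome is impaired, was at 226.4, 190.3 and 193.2 TPM in Paro/Neo hearts, against 176.0, 169.2 and 165.0 TPM in vehicle hearts. The groups were apart for Nfe2l1, with an adjusted p of 0.608 by limma.

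Of the 12 regulators tested, which comprise the Nfe2l1 pathway and interferon-response factors, 9 were higher and 3 lower, and 0 passed (median log2 change 0.30). Irf9, a transcription factor of the interferon response, had the lowest p. It was at 34.2, 24.6 and 43.1 TPM in Paro/Neo hearts, against 11.7, 12.6 and 15.0 TPM in vehicle hearts (adjusted p 0.0793 by limma). Its groups were apart. Irf1, a known activator of Psmb9, was at 14.8, 18.8 and 28.3 TPM in Paro/Neo hearts, against 14.8, 14.5 and 17.1 TPM in vehicle hearts, and its groups overlapped. Among the 12 regulators, groups were apart and higher for 5 and apart and lower for 0 (6.04% and 8.22% of all tested genes).

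Among 15 tested ubiquitin genes 10 were higher and 5 lower, and 0 passed (median log2 change 0.05). Groups were apart and higher for 2 of them and apart and lower for 0 (6.04% and 8.22% of all tested genes). The lowest p belonged to Uba7, the activating enzyme for the ubiquitin-like ISG15, at 11.3, 10.8 and 13.7 TPM in Paro/Neo hearts and 6.30, 6.97 and 7.46 TPM in vehicle hearts, and its limma adjusted p was 0.137. The next was Huwe1, a ubiquitin ligase, at 17.3, 28.5 and 26.3 TPM in Paro/Neo hearts and 28.0, 28.98 and 31.1 TPM in vehicle hearts. The muscle ubiquitin ligases Trim63 and Fbxo32 had log2 changes of 0.05 and 0.10. Of 15 genes that handle class I peptides, 11 were higher and 4 lower (median log2 change 0.24), and 2 rose past the threshold. Of these 15, 7 had groups apart and higher and 0 apart and lower (6.04% and 8.22% of all tested genes). In B2m, the light chain of class I molecules, the libraries held 3270, 2245 and 2380 TPM in Paro/Neo hearts and 737.5, 838.5 and 1001 TPM in vehicle hearts. In H2-K1, a class I heavy chain, they held 242.9, 204.2 and 210.7 TPM in Paro/Neo hearts and 64.3, 80.0 and 106.4 TPM in vehicle hearts. The means were, for B2m, 2631 ± 557 TPM in Paro/Neo hearts and 859 ± 133 TPM in vehicle hearts, and for H2-K1, 219.3 ± 20.7 TPM in Paro/Neo hearts and 83.6 ± 21.3 TPM in vehicle hearts (SD, n = 3 each), with adjusted p values of 0.0202 and 0.0408 by limma.

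Leukocytes carry the immunoproteasome, so their markers are given beside it. Of 10 tested leukocyte and macrophage markers, 9 were higher and 1 lower, where 46.3% of all tested genes were higher. None passed the threshold, and the median log2 change was 0.14. Groups were apart and higher for 3 of the 10 markers and apart and lower for 1 (6.04% and 8.22% of all tested genes). The summed level of the markers was 598.8 to 660.9 TPM in Paro/Neo and 501.9 to 628.1 TPM in vehicle hearts. Ptprc, the pan-leukocyte marker CD45, was at 7.13, 5.67 and 6.19 TPM in Paro/Neo hearts and at 2.85, 4.14 and 3.63 TPM in vehicle hearts, with groups apart and a limma adjusted p of 0.236. Fcgr1, an Fc receptor of macrophages, was at 3.82, 4.10 and 5.61 TPM in Paro/Neo hearts and at 2.17, 2.82 and 1.41 TPM in vehicle hearts, with groups apart and an adjusted p of 0.320. The macrophage marker Cd68 was lower, at 9.51, 14.9 and 15.5 TPM in Paro/Neo hearts and 16.3, 17.1 and 16.1 TPM in vehicle hearts. The 8 lymphocyte markers listed stayed below 1 TPM in every heart and were not tested, and 3 of them, Cd3e, Cd79a and Nkg7, were at 0 in a vehicle heart. Of the other cell types, 0 of 5 endothelial, 0 of 4 fibroblast, 1 of 4 mural and 0 of 3 red blood cell markers were higher, with 0 past the threshold in either direction. Groups were apart and lower for 2 of the 5 endothelial and 2 of the 4 fibroblast markers (8.22% of all tested genes). The endothelial markers summed to 233.1 to 328.2 TPM in Paro/Neo and 347.0 to 399.4 TPM in vehicle hearts, without overlap. The sums of the fibroblast, mural and red blood cell markers overlapped. The summed level of the lymphocyte markers was 2.55 to 3.68 TPM in Paro/Neo and 1.09 to 2.31 TPM in vehicle hearts. The part of these cells in the levels of Psmb8 and Psmb9 was not tested.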

How the data were processed

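Ventricle RNA of 6 mice was measured as 1 library each. The authors deposited TPM values, whose sum is fixed per library, so a gene's value also depends on how abundant the others are. The submitters' processing notes name edgeR, featureCounts, Subread, STAR 2.5.3a and FastQC 0.11.5, and the build mm10, without saying what each did. Neither the annotation nor the strand setting is given in the sources used here.

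Groups and replicate numbers came from the sample titles, where Paro/Neo replicates 1, 2 and 3 carry the numbers 2, 3 and 4 in the descriptions. Values were taken as log2(TPM + 1), which understates changes of low genes, and the 12409 genes that reached 1 TPM in 3 or more libraries were fitted with limma 3.58.1 in R 4.3.3 (eBayes with an intensity trend, two-sided, threshold 0.05). The SE and the 95% intervals are the moderated ones. The fit and the estimation of reads were tested on simulated data. Estimated reads are lower estimates, whole within 0.001 of a read. Shared stretches were counted as 76-base words of GENCODE M21 transcripts found in other genes, and promoters are from RefSeq, with windows for 40 of 48 genes (none used for Psma8, Psmb1, Psmb2, Psmb7, Psmc3, Psmd3, Psmd7 and Psmg2).

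Values in every library are given for Psmb5 to Psmb10, Psme1 and Psme2, proteasome genes with groups apart, and the 2 lowest p of each class. In the partner, regulator, ubiquitin, peptide and leukocyte lists they are given for genes past the threshold and the 2 lowest p. Other genes of these and the remaining lists can have groups apart without being shown. Psmd6, Irf1, Nfe2l1, Tap1, Cd68, Trim63 and Fbxo32 were named after their values were seen, and 1 regulator that the rule names is not reported here. The members and lists were chosen with earlier results of these data known. The alternatives were other pseudocounts, filters, scalings and library weights, no variance trend, each library left out and a replicate block.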

Additional observations from a re-analysis of the deposited data

How the results depend on the processing

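Under 15 alternative settings of the fit, 0 proteasome genes were lower past the threshold, and 0 were higher except Psmb8, alone, without Paro/Neo replicate 2 and with the replicate block. Hearts with the same replicate number in the titles did not deviate together (correlations of -0.0528, -0.0356 and -0.122). These few values cannot decide whether samples are paired, which the labels do not say. Pairing by the numbers in the descriptions was not tried. The block by title number gave Psmb8 an adjusted p of 0.0467 by limma with 25 of all genes higher. Leaving out 1 library gave 0 to 1 proteasome genes higher, 4 to 23 of all genes higher against 15, 0 to 4 of all genes lower against 2, 3 to 8 proteasome genes higher and 0 to 1 lower at an unadjusted p under 0.05 (with 2.40% to 3.80% and 2.87% to 5.81% of all tested genes), and 9 to 16 with groups apart and higher and 2 to 6 apart and lower (with 9.59% to 12.6% and 12.8% to 16% of all tested genes, where 6.04% and 8.22% were apart with all libraries). The counts of groups apart cannot fall when a library is left out, so their lower ends do not show stability. All genes higher numbered 5 without a filter and 8 without a variance trend. All genes lower numbered 1 without a filter, with the 5 TPM filter, with quantile normalization and without a variance trend, and 4 with library weights. With library weights 1 proteasome gene was lower at an unadjusted p under 0.05 (5.58% of all tested genes), and the median of the non-ATPase subunits was 0.0294. Leaving out 1 library, that median was 0.0424 to 0.116, and that of the ATPases -0.032 to 0.0785. The cause of these shifts was not tested.

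Not every proteasome gene was followed through these settings. Among those followed, the sign turned for log2 changes near 0, and for Psmd6, which was -0.0295 without Paro/Neo replicate 1. With library weights the log2 changes were 0.0384 for Psmb5, -0.0311 for Psmb7 and 0.0524 for Psme1. Leaving out 1 library they spanned -0.151 to 0.000257 for Psmb5, -0.0675 to 0.162 for Psmb7, -0.176 to 0.0586 for Psme1 and -0.188 to 0.0418 for Psmf1, and the log2 ratio of Psmb10 to Psmb7 spanned -0.12 to 0.23. The adjusted p of Psmb8 ran from 0.027 to 0.283 over all settings. The stricter filter drops Psma8, so it has no value there. Voom and the counts of groups apart with a library left out were added after the data were seen. The precision for Psma8 and Psmb9 is bounded by their low read numbers, as few as 15 and 59 in a heart.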
